A study of Mus musculus with 24 samples.

Results

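The genes described here are 9 markers of astrocytes: Gfap, Aqp4, Gja1, Agt, Aldoc, Aldh1l1, Slc1a2, Slc1a3 and Glul. They were taken by gene symbol from the 26636 genes measured in each library, and all 9 were found, each above 0 in every library and past the filter on low values. The cells were neural progenitors from the cortex of C57BL/6 mouse embryos at day E12, grown with B27 supplement and the growth factor bFGF, and taken at passage 3. All were moved into differentiation medium with 1 of the enantiomers of JQ1, a small molecule. (+)-JQ1 occupies the acetyl-lysine pockets of the BET bromodomain proteins, which read acetylated chromatin, and (−)-JQ1 is its inactive mirror image. The 8 groups were (+)-JQ1 at 0.2 µM for 12 h, (+)-JQ1 at 0.5 µM for 12 h, (+)-JQ1 at 0.2 µM for 24 h and (+)-JQ1 at 0.5 µM for 24 h, and (−)-JQ1 at the same doses and times. Each group had 3 libraries, 24 in all, which the labels describe as independent preparations of cells. Cells without either enantiomer and cells before differentiation were not analysed here.

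Neural progenitors of the embryonic cortex make neurons first and glia later, and astrocytes arise when signals through gp130 and STAT3, BMP receptors and Notch act on chromatin that has become open at glial genes. Astrocytes are recognised by a skeleton of GFAP filaments, by channels and gap junctions that move water and small molecules, and by transporters and enzymes that clear glutamate and turn it into glutamine. Several of these genes, Slc1a3, Glul, Aldoc and Gja1 among them, are also active in radial glia, the progenitors themselves, so they mark the glial side of the lineage rather than mature astrocytes alone.

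The DNA around the annotated starts of the markers is shown where a short element of the gliogenic pathway was found. A window from 250 bases before to 50 bases after the start was at hand for 8 of the 9 genes, all but Aqp4. The windows came from RefSeq annotation of GRCm38.p6, 9 in all because Aldoc has a pair of starts. The letters TTCNNNGAA, the palindrome that STAT factors recognise, read the same on both strands as a motif. They occurred in 4 of the 9 windows, those of Gfap, Agt, Slc1a3 and the downstream start of Aldoc, and in 8.3% of all 32851 windows of this length. This motif was picked out after the matches of 8 motifs, searched on both strands, were seen. The other shares were, for the 9 windows and then for all windows, 2 and 13.6% for the TATA box TATAAA, 0 and 0.807% for the NFI palindrome and 1 and 14.1% for the NFI letters TTGGCA. They were 7 and 72.3% for the E-box CANNTG, 0 and 18.7% for the SOX letters ACAAAG, 3 and 37.4% for CCAAT and 4 and 35.7% for the GC box GGGCGG. Capitals mark each match to TTCNNNGAA. The Gfap window lies at chr11:102897151-102897450 and the Agt window at chr8:124569657-124569956, both on the minus strand. The Slc1a3 window lies at chr15:8710758-8711057 on the minus strand and the Aldoc window at chr11:78323948-78324247 on the plus strand. These positions belong to GRCm38.p6, while the expression values were made on mm9.
Gfap: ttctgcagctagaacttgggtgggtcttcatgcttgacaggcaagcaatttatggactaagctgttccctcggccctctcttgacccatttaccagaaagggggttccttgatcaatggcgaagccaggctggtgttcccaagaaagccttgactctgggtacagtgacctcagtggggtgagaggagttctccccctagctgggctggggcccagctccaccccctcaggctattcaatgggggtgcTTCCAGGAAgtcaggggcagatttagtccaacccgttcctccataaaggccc
Agt: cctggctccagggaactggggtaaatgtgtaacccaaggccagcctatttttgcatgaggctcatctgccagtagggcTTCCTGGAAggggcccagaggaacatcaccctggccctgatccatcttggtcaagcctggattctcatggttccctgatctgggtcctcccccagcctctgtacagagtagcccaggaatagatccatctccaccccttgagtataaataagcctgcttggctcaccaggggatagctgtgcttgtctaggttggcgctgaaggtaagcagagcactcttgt
Slc1a3: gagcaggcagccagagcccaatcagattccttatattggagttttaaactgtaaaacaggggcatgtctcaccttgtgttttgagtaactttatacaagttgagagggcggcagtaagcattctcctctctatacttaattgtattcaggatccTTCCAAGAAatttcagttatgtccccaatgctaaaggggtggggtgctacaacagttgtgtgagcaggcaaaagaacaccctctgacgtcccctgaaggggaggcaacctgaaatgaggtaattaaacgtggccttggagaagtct
Aldoc: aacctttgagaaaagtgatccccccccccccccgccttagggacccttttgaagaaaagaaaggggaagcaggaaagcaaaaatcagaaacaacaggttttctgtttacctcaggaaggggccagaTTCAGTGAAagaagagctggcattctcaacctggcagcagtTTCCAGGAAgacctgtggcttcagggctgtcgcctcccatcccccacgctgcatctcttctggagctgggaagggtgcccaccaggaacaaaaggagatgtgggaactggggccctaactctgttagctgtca
The matches occurred in genes that fell and in Slc1a3, which was not called lower in any comparison. No match lay in the windows of Gja1, Slc1a2, Aldh1l1 or Glul or at the upstream start of Aldoc, and Aqp4 had no window to search. A match is a string of letters and not evidence of binding.

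Expression is given as FPKM, fragments per kilobase of transcript scaled to mapped reads, for each library. From the steps between low values the relative depth of the libraries ran from 0.939 to 1.05, and 1716 of 2187 low genes gave whole reads within 1%. The scale of those steps put a library at about 10500000 reads, an estimate that leaves Agt with between 13 and 292 reads and every other marker with at least 581. In 2 of the 24 libraries, (+)-JQ1 at 0.2 µM for 24 h number 2 and (−)-JQ1 at 0.2 µM for 24 h number 1, the short RNA gene Mir5105 held 46.9% and 42.7% of the summed FPKM, against at most 6.69% in the other 22. A further library, (−)-JQ1 at 0.2 µM for 24 h number 3, summed to 570329 FPKM with 3.178% in Mir5105, beside a median sum of 471983. Scaling to equal sums outside short RNA genes divided its values by 1.24, the largest factor of the 24. Hexim1, a gene that BET inhibitors raise in many cells, rose at both doses and times, and Myc fell. Hexim1 at 0.5 µM and 24 h had 64.5 ± 3.35 FPKM with (+)-JQ1 and 19.6 ± 1.03 FPKM with (−)-JQ1, and Myc had 7.24 ± 0.248 FPKM with (+)-JQ1 and 35.4 ± 2.3 FPKM with (−)-JQ1 (SD, n = 3 each). These are whole cultures, so fewer cells of a type and less RNA per cell cannot be told apart.

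Under (+)-JQ1 the markers of the astrocyte skeleton, its water channel and its gap junction fell at both doses and both times, while the glial glutamate transporter gene Slc1a3 and the glutamine synthetase gene Glul were not called in either direction. Gfap, Aqp4, Gja1, Agt and Aldoc, 5 of the 9, were called lower in all 4 comparisons with (−)-JQ1. Aldh1l1 and Slc1a2 were called lower in some of them, and none of the 9 was called higher in any. A call is a Benjamini-Hochberg adjusted p under 0.05 in limma over the 13801 genes tested, and changes are log2 differences of FPKM + 1, which understate the change of low genes such as Agt. At 0.2 µM and 12 h, 5 of 9 markers were called lower, against 19.6% of all genes tested. At 0.5 µM and 12 h it was 7 of 9, against 26.1%. At 0.2 µM and 24 h it was 5 of 9, against 21.8%, and at 0.5 µM and 24 h 6 of 9, against 24.5%. No marker was called higher, where 8.23%, 12.2%, 11% and 13.7% of all genes were called higher in the same order. At an unadjusted p under 0.05 the higher side held 0, 0, 1 and 0 markers, the 1 being Slc1a3. Libraries with (+)-JQ1 lay wholly below those with (−)-JQ1 for 4, 7, 5 and 7 of the 9 markers, where 30.2%, 37.5%, 22.3% and 29.4% of all genes tested did. They lay wholly above for 0, 0, 1 and 1, in each case Slc1a3, where 16.8%, 20.7%, 11.7% and 18.7% did. The median change of the 9 was −0.65, −1.05, −0.57 and −0.51, beside −0.07, −0.10, −0.07 and −0.05 over all genes tested. Scaling the libraries by median of ratios moved the split of calls over all genes. For 0.5 µM and 24 h it gave 2723 higher and 2935 lower, against 1893 higher and 3380 lower on the deposited scale, and at 0.2 µM and 24 h 2501 higher and 2443 lower, against 1523 and 3006. At 12 h it gave 1798 higher and 2267 lower at 0.2 µM, against 1136 and 2710, and 2628 higher and 3001 lower at 0.5 µM, against 1682 and 3599. The shares of all genes tested given here and below are those of the deposited scale.

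**Figure D1:**
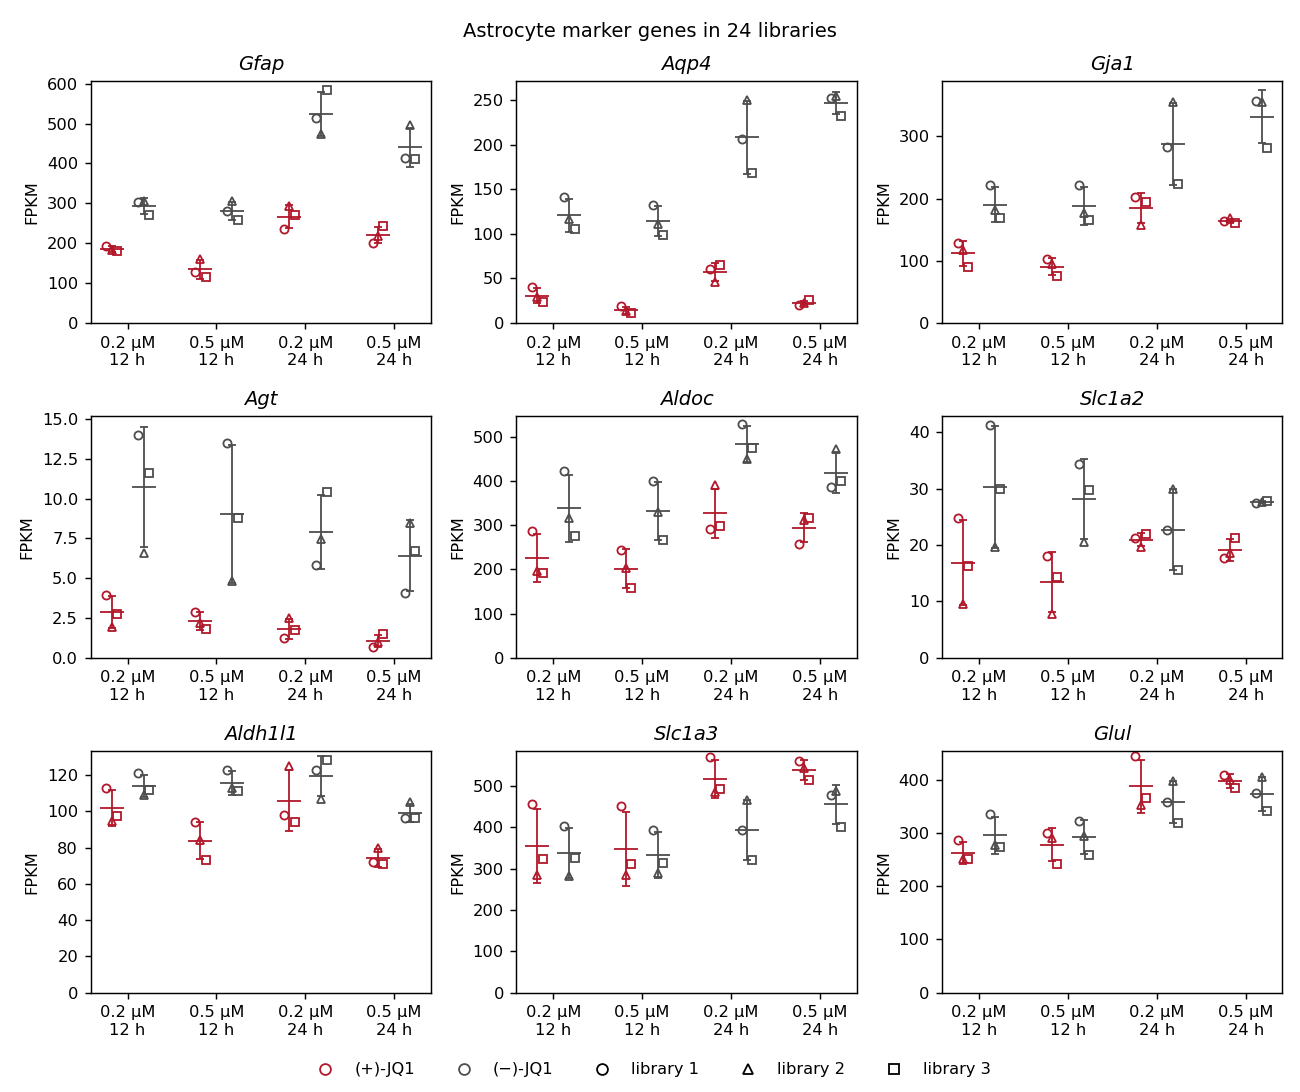
FPKM of the 9 astrocyte markers (y axis of each panel, linear, starting at 0) in 24 libraries, by dose and time (x axis). Red is (+)-JQ1, grey is (−)-JQ1, the bar and whiskers are the mean and SD of 3 libraries, and the marker shape gives the library number. The red points of Gfap, Aqp4, Gja1 and Agt lie below the grey points of the same dose and time in every panel position, while those of Glul overlap with them throughout and those of Slc1a3 overlap at 12 h and lie above at 24 h.

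Gfap codes for the intermediate filament by which astrocytes are most often recognised. At 12 h it had 194, 182 and 179.8 FPKM with (+)-JQ1 at 0.2 µM, against 303, 306 and 269.7 FPKM with (−)-JQ1 at 0.2 µM. At 0.5 µM it had 127, 161 and 115 FPKM with (+)-JQ1, against 279.6, 305 and 259 FPKM with (−)-JQ1. The groups did not overlap at either dose, and the lowest values of all belonged to (+)-JQ1 at 0.5 µM. By 24 h Gfap had 235, 294 and 271 FPKM with (+)-JQ1 at 0.2 µM, against 513, 474 and 583 FPKM with (−)-JQ1 at 0.2 µM. With the higher dose at 24 h it had 201, 218 and 242 FPKM with (+)-JQ1, against 414, 497 and 410.1 FPKM with (−)-JQ1. Again every (+)-JQ1 library was below every (−)-JQ1 library of its dose and time. The log2 changes of Gfap were −0.65, −1.07, −0.97 and −0.99 ± 0.13 (SE) at 0.2 µM and 0.5 µM for 12 h and then at 0.2 µM and 0.5 µM for 24 h, with adjusted p of 0.000597, 1.1e-06, 6.58e-06 and 2.82e-06 in limma. The mean with (+)-JQ1 was 63.4%, 47.7%, 51% and 50% of that with (−)-JQ1. The Gfap level with (+)-JQ1 at 24 h, 267 FPKM at 0.2 µM and 220.3 FPKM at 0.5 µM, was below or overlapped the 293 and 281 FPKM that (−)-JQ1 cells had at 12 h.

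Nes and Vim, which code for the filaments nestin and vimentin of progenitors and young glia, went the other way. Nes at 0.5 µM and 24 h had 112 ± 14 FPKM with (+)-JQ1 and 73.1 ± 8.72 FPKM with (−)-JQ1, a log2 change of 0.61 ± 0.17 (SE, adjusted p = 0.00672 in limma). Vim had 1409 ± 64.6 FPKM with (+)-JQ1 and 992 ± 94.3 FPKM with (−)-JQ1, a change of 0.51 ± 0.14 (adjusted p = 0.0049). Both rose at both doses at 12 h and at 0.5 µM at 24 h. At 0.2 µM and 24 h neither was called, with log2 changes of 0.44 for Nes (adjusted p = 0.0521) and 0.23 for Vim (adjusted p = 0.213). Over all genes tested the shares called higher were 8.23%, 12.2%, 11% and 13.7%, and those called lower 19.6%, 26.1%, 21.8% and 24.5%. Among 9 tested genes of the close families of the markers, 3, 4, 0 and 3 were called higher and 1 lower in each comparison. The 1 called lower at 0.5 µM and 24 h was Aldh1a1, a retinaldehyde dehydrogenase gene, with a log2 change of −1.44.

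Aqp4, the water channel of the astrocyte end-foot, had the largest log2 change of FPKM + 1 among the 9 in all 4 comparisons, though by the ratio of means Agt fell further at 0.2 µM and 24 h. At 12 h it had 39.8, 28.5 and 23.6 FPKM with (+)-JQ1 at 0.2 µM, against 141, 116 and 105 FPKM with (−)-JQ1 at 0.2 µM. With (+)-JQ1 at 0.5 µM it had 18.5, 13.1 and 11.1 FPKM, against 132, 111 and 98.8 FPKM with (−)-JQ1 at 0.5 µM. Each (+)-JQ1 group was far below its (−)-JQ1 group, and the values with (+)-JQ1 at 0.5 µM were all below those at 0.2 µM. At 24 h Aqp4 had 60.2, 45.8 and 64.6 FPKM with (+)-JQ1 at 0.2 µM, against 206, 250.0 and 168 FPKM with (−)-JQ1 at 0.2 µM. With (+)-JQ1 at 0.5 µM it had 20.4, 22.3 and 25.2 FPKM, against 252, 255 and 232 FPKM with (−)-JQ1 at 0.5 µM. The doses of (+)-JQ1 separated again, while those of (−)-JQ1 overlapped. The log2 changes of Aqp4 were −1.97, −2.93, −1.85 and −3.39 ± 0.19 (SE), in the order given for Gfap, with adjusted p of 1.25e-07, 1.66e-10, 2.75e-07 and 1.36e-11 in limma. What remained with (+)-JQ1 was 25.3%, 12.5%, 27.4% and 9.18% of the (−)-JQ1 mean.

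Aqp4 was also the only one of the 9 whose enantiomer effect was called different between doses. At 24 h the effect at 0.5 µM exceeded that at 0.2 µM by a log2 difference of −1.55 ± 0.27 (SE, 95% interval −2.12 to −0.97, adjusted p = 0.0107 in limma). This test called 0.29% of all genes in either direction. At 12 h the difference was −0.96 ± 0.27, with adjusted p = 0.608, in a test that called 0.0435% of all genes. None of the 9 was called there, and 2 had an unadjusted p under 0.05, both lower. Within (+)-JQ1 itself, 0.5 µM gave less Aqp4 than 0.2 µM, with log2 changes of −1.05 at 12 h (adjusted p = 0.00979) and −1.28 at 24 h (adjusted p = 0.000614). Aqp4 was 1 of 9 markers called lower at the higher dose at 12 h, against 0.609% of all genes tested, and 1 of 2 at 24 h, against 2.05%. Fitting only the libraries of the comparison ended the call of the dose difference of effects at 24 h (adjusted p = 0.0599) and that of the 12 h dose comparison (adjusted p = 0.172). The 12 h dose call was also lost without (+)-JQ1 at 0.2 µM number 1 (adjusted p = 0.0838) or (+)-JQ1 at 0.5 µM number 3 (adjusted p = 0.0916).

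Gja1 codes for connexin 43, the main gap junction protein of astrocytes. At 0.5 µM and 12 h it had 102, 94.1 and 75.3 FPKM with (+)-JQ1, against 222, 177 and 165 FPKM with (−)-JQ1. By 24 h at this dose it had 164, 168 and 161 FPKM with (+)-JQ1, against 357, 355 and 282 FPKM with (−)-JQ1. No values overlapped between the enantiomers at this dose. At 0.2 µM the groups were also apart, with 128, 118 and 89.6 FPKM with (+)-JQ1 at 12 h, against 222, 181 and 168 FPKM with (−)-JQ1. At 24 h they were closer, with 203, 158 and 195 FPKM with (+)-JQ1 at 0.2 µM, against 283, 355 and 224 FPKM with (−)-JQ1. The log2 changes of Gja1 were −0.77, −1.05, −0.61 and −1.0 ± 0.17 (SE, adjusted p of 0.00197, 5.64e-05, 0.00992 and 9.21e-05 in limma). The call at 0.2 µM and 24 h was lost without both libraries high in Mir5105 (adjusted p = 0.0764) and without (−)-JQ1 number 2 of that group (log2 change of −0.45, adjusted p = 0.0581). It was lost as well with equal sums outside short RNA genes (0.0707), library weights (0.151) and a fit of that comparison alone (0.11).

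Other genes of the end-foot, of potassium and water movement and of gap junctions fell with Aqp4 and Gja1 more often than they rose. Of 13 tested, 7, 8, 6 and 7 were called lower and 1, 1, 2 and 2 higher in the 4 comparisons, with medians of −0.44, −0.73, −0.03 and −0.54. On the deposited scale all genes tested also fell more often, with 19.6%, 26.1%, 21.8% and 24.5% called lower and 8.23%, 12.2%, 11% and 13.7% higher. Median-of-ratios scaling made that split more even, as given above. Mlc1, a membrane protein gene of the astrocyte end-foot, had 23.9 ± 1.03 FPKM with (+)-JQ1 at 0.5 µM for 24 h and 154 ± 9.42 FPKM with (−)-JQ1 (SD, n = 3 each), a log2 change of −2.64 ± 0.18 (SE, adjusted p = 2.5e-10 in limma). Hepacam, the adhesion partner of MLC1 and connexin 43, had 14.5 ± 2.45 FPKM with (+)-JQ1 and 52.3 ± 3.15 FPKM with (−)-JQ1, a change of −1.79 ± 0.19. The potassium channel gene Kcnj16 had 2.61 ± 0.379 FPKM with (+)-JQ1 and 15 ± 1.92 FPKM with (−)-JQ1, a change of −2.15 ± 0.25. All 3 were lower at both doses and times. Kcnj10, the gene of the main glial potassium channel, was lower by less, with a log2 change of −0.54 at 0.5 µM and 24 h, and Dag1, the dystroglycan gene that anchors the end-foot complex, was higher with 0.44. Kcnj10 and Dag1 were picked out after their values were seen.

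Agt codes for angiotensinogen, the precursor of angiotensin peptides, which astrocytes make in the brain. It was the lowest marker by far. At 12 h it had 3.97, 1.96 and 2.74 FPKM with (+)-JQ1 at 0.2 µM, against 14, 6.58 and 11.6 FPKM with (−)-JQ1, and 2.9, 2.21 and 1.83 FPKM with (+)-JQ1 at 0.5 µM, against 13.5, 4.84 and 8.78 FPKM with (−)-JQ1. At 24 h it had 1.23, 2.47 and 1.76 FPKM with (+)-JQ1 at 0.2 µM, against 5.85, 7.48 and 10.4 FPKM with (−)-JQ1, and 0.683, 1.01 and 1.47 FPKM with (+)-JQ1 at 0.5 µM, against 4.07, 8.49 and 6.69 FPKM with (−)-JQ1. The (−)-JQ1 libraries varied widely among themselves, yet none overlapped with a (+)-JQ1 library in any of the 4 comparisons. The log2 changes of Agt were −1.57, −1.52, −1.65 and −1.82 ± 0.31 (SE, adjusted p of 0.000715, 0.000636, 0.000391 and 9.54e-05 in limma), and (+)-JQ1 cells had 26.9%, 25.6%, 23% and 16.4% of the (−)-JQ1 mean. With a pseudocount of 0.1 FPKM the change at 0.5 µM and 24 h was −2.49. The rest of the renin-angiotensin system was largely below the filter. Of 14 listed genes 4 were tested, and 1 of them, Agtrap, the gene of an angiotensin receptor-associated protein, was called lower in each comparison, with a log2 change of −1.21 at 0.5 µM and 24 h. Another, Lnpep, the gene of an aminopeptidase that binds angiotensin IV, was called higher at 0.2 µM and 24 h (0.61, adjusted p = 0.0171), and the list's medians were 0.02, 0.10, 0.05 and 0.20.

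Aldoc and Aldh1l1 mark the metabolism of astrocytes, as the brain form of the glycolytic enzyme aldolase and as a folate enzyme much used to label astrocytes. Aldoc at 0.5 µM had 244, 204 and 157 FPKM with (+)-JQ1 at 12 h, against 399.6, 331 and 267 FPKM with (−)-JQ1. At 24 h it had 257, 311 and 316 FPKM with (+)-JQ1, against 386, 472 and 399.9 FPKM with (−)-JQ1. At 0.2 µM and 24 h it had 292, 391 and 298 FPKM with (+)-JQ1, against 529, 449.7 and 474 FPKM with (−)-JQ1. These 3 pairs of groups did not overlap. At 0.2 µM and 12 h the highest (+)-JQ1 library was above the lowest (−)-JQ1 library, with 288, 196 and 192 FPKM with (+)-JQ1, against 423, 317 and 275 FPKM with (−)-JQ1. The log2 changes of Aldoc were −0.59, −0.72, −0.57 and −0.51 ± 0.20 (SE, adjusted p of 0.0282, 0.00547, 0.0284 and 0.0446 in limma). Of these, the call at 0.5 µM and 12 h held under every alternative tried. Median-of-ratios scaling ended the other 3, with adjusted p of 0.081, 0.0872 and 0.127. So did the removal of single libraries, (−)-JQ1 number 1, (+)-JQ1 number 2 or (+)-JQ1 number 3 at 0.2 µM and 12 h (highest adjusted p 0.169), number 1 or 3 of either enantiomer at 0.2 µM and 24 h (highest 0.0979), and any of the 6 at 0.5 µM and 24 h (highest 0.163). The last call was lost too without number 2 of (+)-JQ1 at 0.5 µM, (−)-JQ1 at 0.2 µM or (−)-JQ1 at 0.5 µM for 12 h (highest 0.0522).

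Aldh1l1 was called lower at 0.5 µM and not at 0.2 µM, and the difference between the doses was itself not called. At 0.5 µM it had 93.9, 83.9 and 73.4 FPKM with (+)-JQ1 at 12 h, against 123, 113 and 111 FPKM with (−)-JQ1. At 24 h it had 72, 79.9 and 70.9 FPKM with (+)-JQ1, against 96.2, 105 and 96.5 FPKM with (−)-JQ1. The groups were apart at both times and the log2 changes of Aldh1l1 were −0.47 and −0.42 ± 0.11 (SE, adjusted p = 0.00269 and 0.00626 in limma). At 0.2 µM it was not called, with log2 changes of −0.17 at 12 h (95% interval −0.41 to 0.07) and −0.18 at 24 h (95% interval −0.42 to 0.05). Its 98.1, 125 and 94.3 FPKM with (+)-JQ1 at 0.2 µM for 24 h overlapped the 123, 107 and 128 FPKM with (−)-JQ1. Without (+)-JQ1 number 2, a library high in Mir5105, the change was −0.31 (adjusted p = 0.045 in limma). That was the only 1 of 34 alternatives with a call, and leaving out both libraries high in Mir5105 gave none. The difference of the effects between doses was −0.30 ± 0.16 at 12 h and −0.23 ± 0.16 at 24 h, each with adjusted p = 1. Within (+)-JQ1, Aldh1l1 at 0.5 µM was below Aldh1l1 at 0.2 µM at 24 h (log2 change of −0.49, adjusted p = 0.0225) and was not called at 12 h (−0.28, adjusted p = 0.537). With (−)-JQ1 the same dose comparison at 24 h gave −0.26 (adjusted p = 0.382). The call within (+)-JQ1 was lost without (+)-JQ1 at 0.2 µM number 2 (adjusted p = 0.175), without (+)-JQ1 at 0.5 µM number 1 (0.117) or number 3 (0.06), under median-of-ratios scaling (0.0683) and in a fit of that comparison alone (0.222). Counting was not stated to use strand, and Gm15756 overlaps Aldh1l1 on the opposite strand in GENCODE M21, so reads of the pair cannot be told apart. Gm13872 overlaps Slc1a2 and Teddm2 overlaps Glul on the opposite strand, and Gm45901 overlaps Aldh1l1 and Mir8114 overlaps Glul on the same strand. Of these overlapping genes only Gm15756 is among the genes measured.

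**Figure D2:**
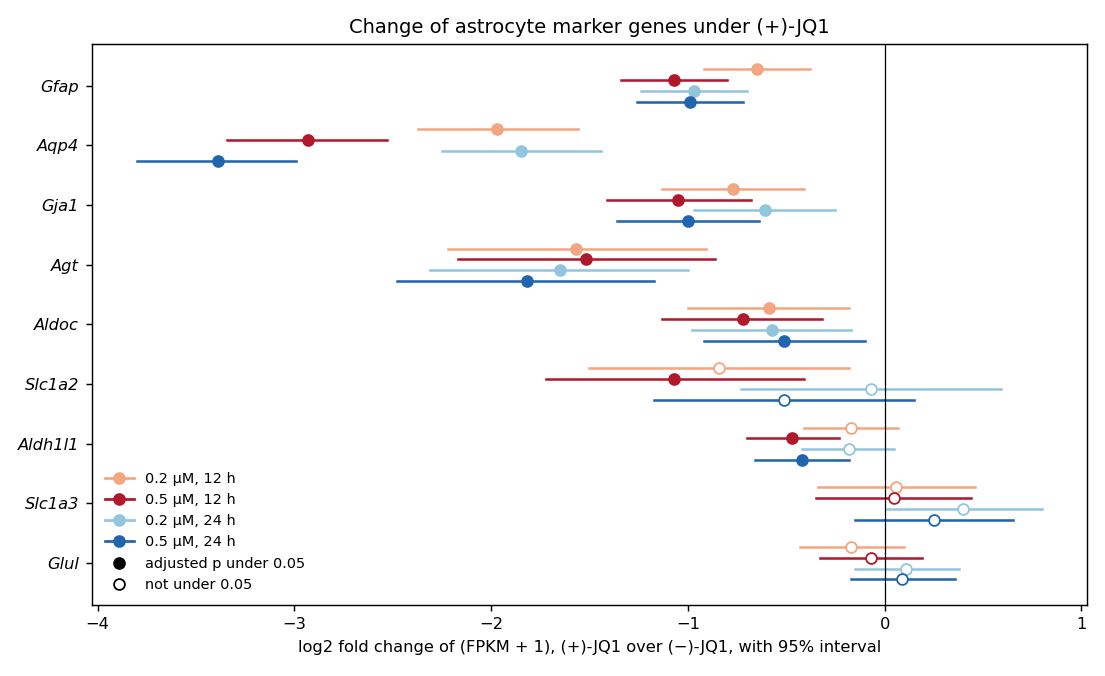
Log2 change of FPKM + 1, (+)-JQ1 over (−)-JQ1 (x axis), for the 9 markers (y axis) at each dose and time. Points are limma estimates with 95% intervals, filled where the adjusted p was under 0.05. Aqp4 reaches −3.39 at 0.5 µM and 24 h, and Aqp4, Gfap, Gja1, Agt and Aldoc are filled in all 4 rows. Glul lies around 0, and Slc1a3 runs from 0.05 to 0.40, open in all 4 rows.

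The 3 markers of glutamate clearance differed among themselves. Slc1a2 codes for GLT-1, the chief glutamate transporter of mature astrocytes, and was low here. At 12 h it had 24.7, 9.59 and 16.3 FPKM with (+)-JQ1 at 0.2 µM, against 41.2, 19.7 and 30 FPKM with (−)-JQ1, and 18.1, 7.69 and 14.4 FPKM with (+)-JQ1 at 0.5 µM, against 34.4, 20.5 and 29.7 FPKM with (−)-JQ1. Number 1 was the highest and number 2 the lowest library in each of these 4 groups. The enantiomers overlapped at 0.2 µM and not at 0.5 µM. Within each library number, Slc1a2 was lower with (+)-JQ1 in 3 of 3 at both doses at 12 h. The log2 change was −0.84 ± 0.31 at 0.2 µM (adjusted p = 0.0522) and −1.07 ± 0.31 at 0.5 µM (adjusted p = 0.0107 in limma, SE). The 0.5 µM call was lost without (−)-JQ1 number 1 (0.0544), without (+)-JQ1 number 2 (0.0778) and in a fit of that comparison alone (0.0539). At 0.2 µM a call was gained with the library number as a block (0.025), where all 3 same-numbered pairs had deviations that correlated over 0.1, and without (+)-JQ1 number 1 (0.0129) or (−)-JQ1 number 2 (0.0195) of the comparison. At 24 h Slc1a2 had 21.2, 19.7 and 21.9 FPKM with (+)-JQ1 at 0.2 µM, against 22.7, 29.9 and 15.6 FPKM with (−)-JQ1, a log2 change of −0.07 (95% interval −0.73 to 0.59). At 0.5 µM and 24 h it had 17.6, 18.5 and 21.2 FPKM with (+)-JQ1, against 27.4, 27.6 and 27.8 FPKM with (−)-JQ1. Those groups did not overlap, the change was −0.51 ± 0.31 (adjusted p = 0.221), and a fit of these 6 libraries alone gave adjusted p = 0.00402. The difference between times was not called at either dose (log2 difference 0.77 at 0.2 µM and 0.55 at 0.5 µM).

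Slc1a3 codes for GLAST, the glutamate transporter of radial glia and astrocytes. With (+)-JQ1 at 12 h it had 455, 284 and 323 FPKM at 0.2 µM, against 402, 282 and 326 FPKM with (−)-JQ1, and 450.4, 284 and 310.3 FPKM with (+)-JQ1 at 0.5 µM, against 394, 289.6 and 314 FPKM with (−)-JQ1. The enantiomers overlapped almost entirely, with log2 changes of 0.06 (95% interval −0.34 to 0.46) and 0.05 (95% interval −0.35 to 0.44), whose sign turned under some alternatives. At 24 h it had 569, 486 and 493 FPKM with (+)-JQ1 at 0.2 µM, against 394, 466 and 321 FPKM with (−)-JQ1, and 561, 543 and 513 FPKM with (+)-JQ1 at 0.5 µM, against 477, 488 and 400.0 FPKM with (−)-JQ1. At 24 h every (+)-JQ1 library was above every (−)-JQ1 library of its dose. The changes were 0.40 ± 0.19 at 0.2 µM (adjusted p = 0.112 in limma) and 0.25 ± 0.19 at 0.5 µM (adjusted p = 0.337). Equal sums outside short RNA genes gave 0.54 at 0.2 µM and 24 h (adjusted p = 0.0422).

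Glul codes for glutamine synthetase. It was not called in any of the 4 comparisons of enantiomers. At 0.5 µM it had 299.6, 291 and 242 FPKM with (+)-JQ1 at 12 h, against 322, 295 and 258 FPKM with (−)-JQ1, and 408, 400.1 and 384 FPKM with (+)-JQ1 at 24 h, against 375, 404 and 340.4 FPKM with (−)-JQ1. At 0.2 µM it had 287, 251 and 251 FPKM with (+)-JQ1 at 12 h, against 336, 278 and 273 FPKM with (−)-JQ1, and 444, 353 and 365 FPKM with (+)-JQ1 at 24 h, against 358, 397 and 318 FPKM with (−)-JQ1. All 4 pairs of groups overlapped. The log2 changes were −0.17, −0.07, 0.11 and 0.09 ± 0.13 (SE), and the 95% intervals together ran from −0.43 to 0.38, so a fall of the size seen for Gfap lies outside them.

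In the wider list of glutamate and glutamine genes, 5, 8, 5 and 7 of 15 tested were called lower and 2, 3, 2 and 2 higher, with medians of −0.35, −0.40, −0.28 and −0.42. Shares of all genes tested were 19.6%, 26.1%, 21.8% and 24.5% lower and 8.23%, 12.2%, 11% and 13.7% higher. Slc1a1, a glutamate transporter gene mostly of neurons, had 9.69 ± 1.03 FPKM with (+)-JQ1 at 0.5 µM for 24 h and 57.3 ± 5.39 FPKM with (−)-JQ1 (SD, n = 3 each), a log2 change of −2.45 ± 0.10 (SE, adjusted p = 8.5e-14 in limma). Slc38a1, a glutamine transporter gene, changed by −1.38 ± 0.10 and Got2, the mitochondrial aspartate aminotransferase gene, by −1.14 ± 0.11. All 3 were called lower at both doses and times. Slc1a1 fell in the same libraries in which its relative Slc1a3 was not called.

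A list of 36 further tested astrocyte genes had 17, 19, 15 and 20 called lower and 1, 3, 1 and 4 called higher, with medians of −0.48, −0.71, −0.47 and −0.67. Across all genes tested, 19.6%, 26.1%, 21.8% and 24.5% were called lower and 8.23%, 12.2%, 11% and 13.7% higher. S100b, the gene of an EF-hand protein found in astrocytes and in oligodendrocyte precursors, had 1.72 ± 0.367 FPKM with (+)-JQ1 at 0.5 µM for 24 h and 42.7 ± 4.87 FPKM with (−)-JQ1 (SD, n = 3 each). Tnc, the gene of the matrix protein tenascin-C, had 7.06 ± 2.09 FPKM with (+)-JQ1 and 34.5 ± 1.2 FPKM with (−)-JQ1. This gene is also in the list of radial glia markers used below. Slc15a2, a peptide transporter gene, had 12.9 ± 0.75 FPKM with (+)-JQ1 and 51.6 ± 6.89 FPKM with (−)-JQ1. Their log2 changes were −4.01 ± 0.21, −2.17 ± 0.20 and −1.91 ± 0.13 (SE), and each was called lower in all 4 comparisons. The 4 called higher at 0.5 µM and 24 h were Fabp7, Mfge8, Fgfr3 and Sox9, with log2 changes of 0.74, 0.58, 0.51 and 0.45. Fabp7 is a fatty acid binding protein gene of radial glia, and Sox9 a transcription factor gene of progenitors and glia.

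Genes that govern astrocyte formation did not move one way. Of 34 tested, 6, 8, 9 and 8 were called higher and 7, 9, 10 and 10 lower, with medians between 0.02 and 0.10. Calls over all genes tested also went both ways, with 8.23%, 12.2%, 11% and 13.7% higher and 19.6%, 26.1%, 21.8% and 24.5% lower. The 3 with the largest change at 0.5 µM and 24 h belonged to BMP signalling, and all fell. Bmp4, a ligand gene, had 1.05 ± 0.338 FPKM with (+)-JQ1 at 0.5 µM for 24 h and 12 ± 2.72 FPKM with (−)-JQ1 (SD, n = 3 each), and changed by −2.66 ± 0.21 on the log2 scale (SE, adjusted p = 1.46e-09 in limma). Id3 and Id1, targets of BMP signals that restrain neurogenic factors, changed by −2.80 ± 0.35 and −2.05 ± 0.25. All 3 were called lower in the 4 comparisons. In the same comparison the Notch target Hes5 was higher by 1.27 and Notch2 by 0.90, while Stat3 (0.11) and Nfia (0.21) were not called. Those last 4 genes were picked out after their values were seen.

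**Figure D3:**
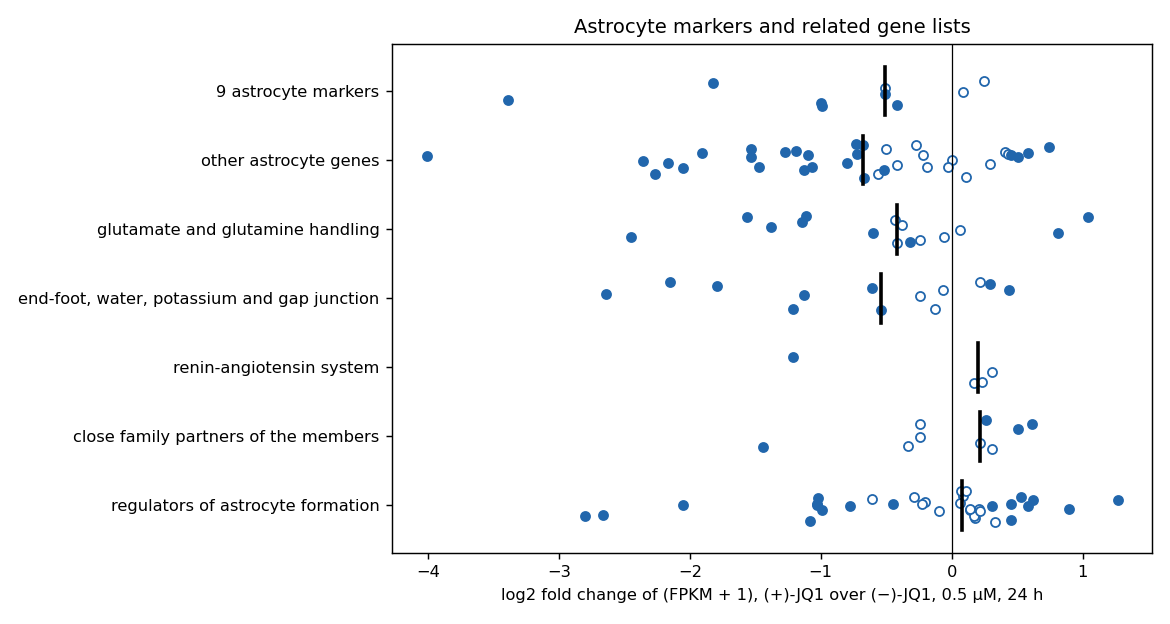
Log2 change of FPKM + 1, (+)-JQ1 over (−)-JQ1 at 0.5 µM and 24 h (x axis), for the 9 markers and for each list of related genes (y axis; vertical position within a row is only spread). Each point is a gene, filled where the adjusted p was under 0.05, and the black bar is the median. The 9 markers have a median of −0.51, the other astrocyte genes −0.67 and the regulators of astrocyte formation 0.08.

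Among markers of other cells, some lists were mostly called lower and others had calls in both directions. For all genes tested the calls were 19.6%, 26.1%, 21.8% and 24.5% lower and 8.23%, 12.2%, 11% and 13.7% higher. The summed FPKM of 11 oligodendrocyte lineage markers was between 493 and 650.3 with (+)-JQ1 at 0.5 µM for 24 h and between 1832 and 2345 with (−)-JQ1, and 8, 9, 7 and 9 of 10 tested were called lower in the 4 comparisons. None of the 11 was at 0 in all 3 libraries of a group. Of 9 pericyte and fibroblast markers, summed to between 24.3 and 29.6 FPKM with (+)-JQ1 at 0.5 µM for 24 h and between 107 and 146 FPKM with (−)-JQ1, 4, 5, 5 and 5 of 6 tested were lower, and 1 was at 0 in all 3 libraries of each (+)-JQ1 group. At 0.5 µM and 24 h, 7 of these 9 were under 1 FPKM in all 3 (+)-JQ1 libraries and 2 in all 3 (−)-JQ1 libraries. Cspg4 is in both this list and the oligodendrocyte list, so the lists are not independent. Of 9 ependymal and choroid plexus markers 4 were tested, and 3 were lower in each comparison, while the other, Otx2, was called higher in all but 0.2 µM and 12 h, with sums of 31.9 to 36.1 FPKM with (+)-JQ1 and 41.4 to 45.8 FPKM with (−)-JQ1 at 0.5 µM for 24 h. The 10 radial glia markers summed to between 4630.0 and 6428 FPKM with (+)-JQ1 and between 3053 and 4401 FPKM with (−)-JQ1 there, with 3, 4, 1 and 5 called higher and 1, 2, 2 and 2 lower. Tnc, also in the list of further astrocyte genes, was among those called lower in each comparison. Of 9 markers of intermediate progenitors and young neurons, 3, 3, 2 and 2 were called higher and 5, 6, 3 and 4 lower. At 0.5 µM and 24 h these summed to between 235 and 301 FPKM with (+)-JQ1 and between 157 and 201 FPKM with (−)-JQ1. Their part in the fall of the astrocyte genes was not tested. All 9 microglial markers and all 5 measured erythroid markers were under 1 FPKM in every library, with sums of at most 1.53 and 0.293 FPKM. Of 7 endothelial markers 1 was tested, Kdr, called lower at 24 h at both doses, and the sum was at most 6.85 FPKM. The 9 astrocyte markers summed to between 1702 and 1761 FPKM with (+)-JQ1 at 0.5 µM for 24 h and between 2196 and 2613 FPKM with (−)-JQ1.

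Several astrocyte markers were higher at 24 h than at 12 h under either enantiomer. With (−)-JQ1, taking both doses together, Gfap, Aqp4, Gja1, Aldoc and Glul were called higher at 24 h, 5 of 9, against 11% of all genes tested, and none lower, against 4.62%. These shares hold for the deposited scale, where 1520 genes were called higher and 637 lower. Median-of-ratios scaling gave 1219 higher and 1002 lower, and equal sums outside short RNA genes turned the split to 832 higher and 1735 lower. Their log2 changes were 0.74 ± 0.09, 0.94 ± 0.14, 0.70 ± 0.12, 0.44 ± 0.14 and 0.32 ± 0.09 (SE), with adjusted p of 1.22e-05, 6.65e-05, 0.000467, 0.0339 and 0.0197 in limma. The first 3 were called under every alternative. The calls of both Aldoc and Glul were lost under median-of-ratios scaling (0.0762 for Aldoc and 0.0645 for Glul), under equal sums (0.127 and 0.19) and without (−)-JQ1 at 0.5 µM for 24 h number 2 (0.0932 and 0.0581). They were also lost without number 2 (0.0723 and 0.052) or number 3 (0.0942 and 0.0531) of (−)-JQ1 at 0.2 µM for 12 h, and without number 3 of (−)-JQ1 at 0.5 µM for 12 h (0.0972 and 0.0612). For Aldoc alone that was so without (−)-JQ1 at 0.2 µM for 24 h number 1 (0.054) or (−)-JQ1 at 0.5 µM for 12 h number 2 (0.0585). Slc1a3 (0.34), Slc1a2 (−0.19), Aldh1l1 (−0.08) and Agt (−0.38) were not called.

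With (+)-JQ1 the same comparison called Gfap, Aqp4, Gja1 and Glul higher at 0.2 µM, 4 of 9, against 2.67% of all genes tested. At 0.5 µM it called Gfap, Gja1 and Glul, 3 of 9, against 2.77%. The split over all genes at 0.2 µM was 369 higher and 86 lower on the deposited scale, 278 and 119 under median-of-ratios scaling and 176 and 100 under equal sums. At 0.5 µM it was 382 higher and 199 lower on the deposited scale, 349 and 320 under median-of-ratios scaling and 195 and 285 under equal sums. Gfap was higher by 0.52 and 0.72 ± 0.13 (SE), Gja1 by 0.73 and 0.87 ± 0.17 and Glul by 0.55 and 0.52 ± 0.13 at 0.2 and 0.5 µM. Aqp4 was higher by 0.89 ± 0.19 at 0.2 µM, and at 0.5 µM its change was 0.66 ± 0.19 (adjusted p = 0.0589 in limma). No marker was called in the test of whether the enantiomer effect differed between 24 and 12 h. That test called 0.0217% of all genes at 0.2 µM and 0.326% at 0.5 µM, and at an unadjusted p under 0.05 it held 0 of the 9 at either dose. The 4 calls at 0.2 µM were sensitive to single libraries. Without (+)-JQ1 for 12 h number 3 no call remained of the 4, without number 2 there were 2 calls, and without number 1 or number 3 of the 24 h group there was 1. At 0.5 µM 1 call was left without (+)-JQ1 for 12 h number 3.

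**Figure D4:**
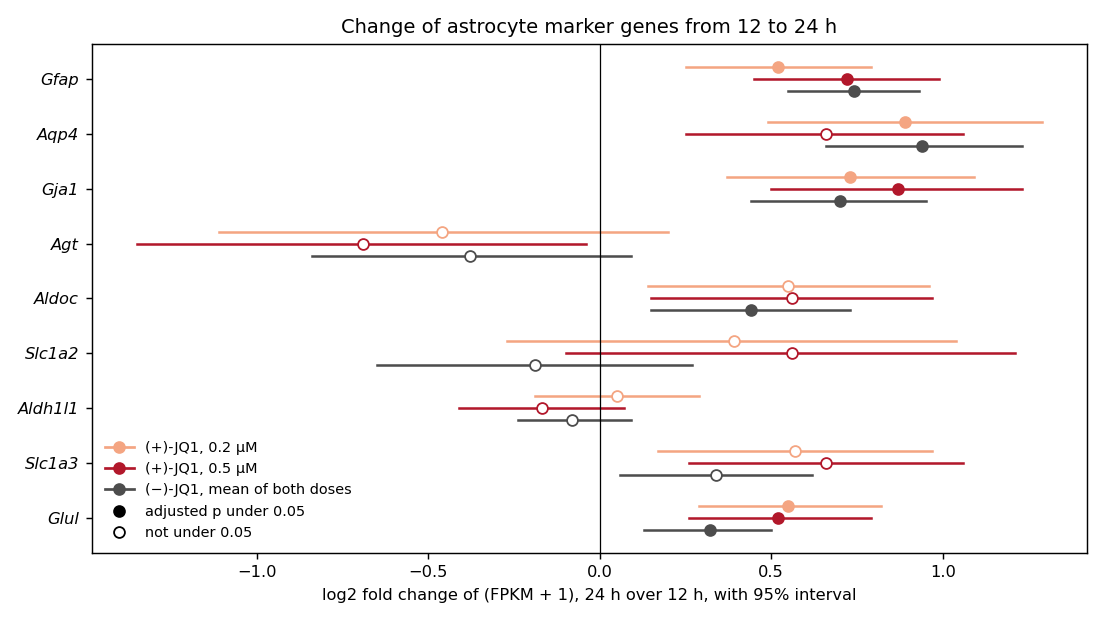
Log2 change of FPKM + 1, 24 h over 12 h (x axis), for the 9 markers (y axis) in (+)-JQ1 at 0.2 µM, (+)-JQ1 at 0.5 µM and (−)-JQ1 with both doses averaged. Points are limma estimates with 95% intervals, filled where the adjusted p was under 0.05. Gfap, Gja1 and Glul are filled in all 3 rows, with Gfap at 0.52, 0.72 and 0.74, while Agt lies below 0.

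The dose of (−)-JQ1 made no called difference to any of the 9 at either time. That comparison called 0% of all genes tested at 12 h and 0.00725% at 24 h in limma, and at an unadjusted p under 0.05 the 9 held 0 at 12 h and 1 at 24 h, Aldh1l1 with a log2 change of −0.26. In Gfap the 4 (−)-JQ1 groups had the higher means and 24 h came before 12 h within each enantiomer, with 523 FPKM with (−)-JQ1 at 0.2 µM for 24 h at the top. Its lowest group was (+)-JQ1 at 0.5 µM for 12 h with 134 FPKM, and 3 of the 7 pairs of neighbours in the order did not overlap. Gja1 had the same order of enantiomers and times, with 90.3 FPKM in its lowest group, (+)-JQ1 at 0.5 µM for 12 h, and 331 FPKM in its highest, (−)-JQ1 at 0.5 µM for 24 h, and 2 pairs of neighbours were apart. In Aqp4 the dose of (+)-JQ1 came before the time, from 14.2 FPKM with (+)-JQ1 at 0.5 µM for 12 h up to 246 FPKM with (−)-JQ1 at 0.5 µM for 24 h, and 4 pairs of neighbours were apart. Every pair of neighbours overlapped in the orders of Slc1a3, Slc1a2, Aldoc and Glul, and 1 pair was apart in those of Agt and Aldh1l1. The highest groups of Slc1a3 and Glul were those of (+)-JQ1 at 0.5 µM for 24 h, with 539 and 398 FPKM. For Agt the order ran by enantiomer and then by time, with 1.06 FPKM in (+)-JQ1 at 0.5 µM for 24 h at the bottom and 10.7 FPKM in (−)-JQ1 at 0.2 µM for 12 h at the top.

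Likeness between genes was measured as the root mean square difference of their centred log2 values over the 24 libraries, among 9149 genes. Within the 9 the nearest pair was Glul and Slc1a3, at 0.178, followed by Gfap and Gja1 at 0.266 and Gfap and Aldoc at 0.275. Over all genes Gfap was nearest to Palm (0.178) and Dhrs1 (0.184), and Gja1 to Cobll1 (0.187) and Fgf12 (0.211). Aqp4, whose own spread about its mean was 1.42, was nearest to 1810041L15Rik (0.289) and the zinc transporter gene Slc39a12 (0.299). Slc1a2 was nearest to Dtna (0.192), the dystrobrevin gene of the end-foot complex, and Coro2b (0.258). The nearest to Aldoc were Sirpa (0.138) and Ndrg2 (0.16), and to Aldh1l1 Ano10 (0.12) and Ldhb (0.128). Slc1a3 was nearest to Hsdl2 (0.171) and Dab1 (0.173), Glul to B3galtl (0.123) and Gprasp1 (0.13), and Agt to Spock2 (0.292) and Cplx1 (0.308). These genes share the libraries and their depth with the markers, and a gene that varies little has a small difference from many others.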

How the data were processed

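Poly(A) RNA was copied with random hexamers after DNase treatment, and single-end reads of 50 bases were made, per the labels' protocols. FastQC, TopHat2 and the mouse build mm9 are named in the submitters' processing notes, and their versions, the annotation and the program that made the FPKM are not given in the sources used here. Each deposited file gives 1 FPKM value per gene symbol, a unit that comes from the series' description for this work and that no header or label states. Each file held 26694 entries, and 58 entries of 29 repeated symbols were left out.

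Values were analysed as log2(FPKM + 1). A gene was tested where 3 or more libraries reached 1 FPKM, which 13801 did. Tests used 8 group means in limma 3.58.1 under R 4.3.3, with 16 residual degrees of freedom and robust empirical Bayes moderation along the mean. For 15 comparisons, p-values were adjusted by Benjamini-Hochberg over the genes tested and called under 0.05. Libraries with the same number were checked for pairing by the correlation of their deviations from the group means. Of 12 pairs 7 had a correlation over 0.1, among them all 3 at 0.2 µM and 12 h. The 3 pairs at 0.2 µM and 24 h had correlations of −0.196, −0.345 and −0.00381. For that reason the numbers were not taken to pair the libraries over the whole design. The highest correlation there, 0.395, joined (+)-JQ1 number 2 and (−)-JQ1 number 1, both high in Mir5105. The low values at that dose and time therefore do not show that pairing is absent. With the number as a block the SE of the enantiomer changes was smaller for Slc1a3 (0.15 against 0.19), Glul (0.10 against 0.13) and Gja1 (0.14 against 0.17). It was 0.11 in both fits for Aldh1l1 and larger for Agt (0.32 against 0.31). No label says that a number marks a shared preparation. No count test was run, since the values are not counts. The replicates are independent preparations of cells, per the labels.

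All 9 markers are named in every comparison. From each list of related genes the text names the 3 with the largest change among those called at 0.5 µM and 24 h with a mean of at least 5 FPKM, for each marker the 2 genes with the nearest pattern, and Hexim1 and Myc as a check of the compound. The family list held only 2 such genes whose mean reached that level, and the renin-angiotensin list none. Genes outside this rule were picked out after their values were seen. The members, lists and rules were chosen with earlier results of these data known.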

Additional observations from a re-analysis of the deposited data

Results flagged for a closer look

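The fall of Aqp4 with (+)-JQ1 differed between doses at 24 h. Aqp4 averaged 22.6 FPKM with (+)-JQ1 and 246 FPKM with (−)-JQ1 at 0.5 µM, and 56.9 FPKM with (+)-JQ1 and 208 FPKM with (−)-JQ1 at 0.2 µM. The test of the difference of the effects gave −1.55 ± 0.27 on the log2 scale (SE, adjusted p = 0.0107 in limma), 1 of 40 genes called among 13801. Its range over 34 alternatives was −1.77 to −1.40, with adjusted p from 0.00631 to 0.0599.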

How the results depend on the processing

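Of the 23 calls in the 4 comparisons of (+)-JQ1 with (−)-JQ1, 18 held under all 34 alternatives, which changed the pseudocount, filter, scaling, weights, trend, block or libraries. The other 5 are named in the report, and no called direction reversed. Counts of markers called lower at 0.2 µM and 24 h fell to 3 of 9 under equal sums, library weights and a fit of that comparison alone, and 1 marker, Slc1a3, was called higher there under equal sums. The dose difference of effects at 24 h had 0 calls in a fit of its own libraries. For 0.5 against 0.2 µM of (+)-JQ1 at 12 h, weights gave 2 lower and a fit alone 0, and leaving out single libraries 0 to 2. At 24 h median-of-ratios scaling, a fit alone and removal of both Mir5105 libraries gave 1, and leaving out single libraries 1 to 2. For 24 against 12 h, calls in (+)-JQ1 at 0.2 µM were 1 under median-of-ratios scaling and 0 under equal sums and a fit alone, and 0 to 4 without single libraries. At 0.5 µM they were 5 with a pseudocount of 0.1 FPKM, with weights and without both Mir5105 libraries, and 1 to 5 without single libraries. In (−)-JQ1 they were 3 under median-of-ratios scaling and equal sums, and 3 to 5 without single libraries. In these statements the cause was not tested.

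Of 12 same-numbered pairs across enantiomers 7 had a correlation of deviations over 0.1, with a range of −0.345 to 0.358. Across all groups, 14 of 24 libraries correlated best with one of their own number, where each other group held 1 such library among its 3. The median correlation was 0.0308 for libraries of the same number and −0.0208 for other numbers, which ranged from −0.314 to 0.395. A replicate block gave 5 calls for 24 against 12 h in (+)-JQ1 at 0.5 µM, and called Slc1a3 higher, 1 of 9, at 0.2 µM and 24 h (0.40, adjusted p = 0.0448 in limma) and Slc1a2 lower at 0.2 µM and 12 h (0.025). For 24 against 12 h it also called Slc1a3 higher in (−)-JQ1 (0.34, adjusted p = 0.0339), in (+)-JQ1 at 0.2 µM (0.57, 0.0357) and in (+)-JQ1 at 0.5 µM (0.66, 0.0143), and Aqp4 higher in (+)-JQ1 at 0.5 µM (0.66, 0.0309). Depth limits Agt most, with about 13 reads in its lowest library.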
